A study of Mus musculus with 12 samples.

Results

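Among CD8 T cells infiltrating the islets of NOD mice, a small set of cells carried a high load of Nr4a1 RNA. The Nr4a1-high cells were chosen by the raw counts of 3 genes in each cell: at least 3 unique molecular identifiers (UMIs, each taken as 1 captured RNA molecule) of Nr4a1, at least 1 of Nfkbid and 0 of Mki67. They numbered 417 of the 18163 islet cells, and of the 24117 cells of all 6 libraries, that passed limits on mitochondrial UMIs (under 5%) and on genes per cell (200 to 3500 in the islets). The cells came from NOD/ShiLtJ female mice, 10 to 15 wk old and prediabetic, with 10 mice pooled for each of 2 rounds of sorting and sequencing. The labels name no transgene and no treatment, and all groups share the NOD background. In each round, CD8 T cells were sorted from the islets as binding (tetramer-positive) or not binding (tetramer-negative) an NRP-V7/Kd tetramer, which detects T cells reactive to IGRP206-214, a peptide of a β-cell protein. Tetramer-positive cells were also sorted from the spleen. Each group therefore held 2 libraries of single-cell RNA sequencing (scRNA-seq) and 2 of T-cell receptor (TCR) sequencing, and individual mice within a pool cannot be separated. The islets were digested with collagenase and then kept at 37 °C for 1 h, whereas spleens were dissociated mechanically. The paper also states that spleen cells were enriched for CD8 T cells with magnetic beads and sorted as positive for the surface marker CD44. Tissue, handling and this selection therefore cannot be told apart.

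Nr4a1 encodes Nur77, an orphan nuclear receptor that T cells transcribe within minutes to hours after the TCR binds its ligand. Cytokine signals alone induce it poorly, which is why Nr4a1 reporters are used to read recent antigen recognition. Nfkbid encodes IκBNS, a nuclear IκB protein that is induced by NF-κB after TCR engagement, and Mki67 marks dividing cells. Cd69, an early activation receptor that also holds T cells in tissue, and Ccl4, a chemokine of activated CD8 T cells, are used as further markers of recently activated cells.

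The 250 bases before the annotated transcription start of Nr4a1, Nfkbid and Nfkbia (the classical IκBα, described below) are shown because the first 2 genes chose the cells and the third was among the genes that stood highest in them. They were taken from RefSeq on GRCm38.p6 and are written 5′ to 3′ on the strand of the gene. Capitals mark matches on either strand to 4 motifs that factors downstream of the TCR are known to bind. These were the full cyclic-AMP response element (CRE; TGACGTCA), the CRE-like heptamer TGCGTCA, the AP-1 motif TGANTCA and the NF-κB consensus. The heptamer was added to the search after the Nr4a1 sequence was seen.
Nr4a1, chr15:101266596-101266845, plus strand: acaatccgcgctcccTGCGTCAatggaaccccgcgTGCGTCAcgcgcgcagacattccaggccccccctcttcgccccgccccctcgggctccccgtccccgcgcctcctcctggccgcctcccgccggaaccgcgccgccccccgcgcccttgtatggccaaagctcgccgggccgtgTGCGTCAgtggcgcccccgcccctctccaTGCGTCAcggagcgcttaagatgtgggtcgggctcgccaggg
Nfkbid, chr7:30422156-30422405, plus strand: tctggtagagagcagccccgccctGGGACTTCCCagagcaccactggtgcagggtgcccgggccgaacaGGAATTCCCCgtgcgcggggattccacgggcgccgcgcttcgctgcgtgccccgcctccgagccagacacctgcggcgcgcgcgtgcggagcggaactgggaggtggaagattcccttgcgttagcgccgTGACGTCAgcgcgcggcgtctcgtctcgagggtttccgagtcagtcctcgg
Nfkbia, chr12:55492648-55492897, minus strand: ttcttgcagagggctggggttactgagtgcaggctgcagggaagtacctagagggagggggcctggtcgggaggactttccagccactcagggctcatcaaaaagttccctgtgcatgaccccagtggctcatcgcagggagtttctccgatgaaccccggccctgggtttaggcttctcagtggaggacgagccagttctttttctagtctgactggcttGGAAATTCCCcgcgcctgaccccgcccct

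The Nr4a1 window held 4 copies of TGCGTCA, with the first base 235, 215, 71 and 42 bases before the start. One of 3 annotated starts of Nfkbid had a full CRE 51 bases before it and NF-κB consensus matches 226 and 181 bases before it. Nfkbia had a single NF-κB match, 29 bases before its start. The window of Gadd45b, which stood higher in the members than Nfkbia (below), was searched too. It held no match to any of the motifs and is not shown. Of the 68 genes found at least 2-fold higher in the Nr4a1-high cells of all 4 islet libraries (below), 55 were in the RefSeq promoter table. A full CRE was found for 7 of these 55 genes (12.7%), namely Arl5b, Ccnl1, Dusp1, Maff, Nfkbid, Ppp1r15a and Snhg15, and for 1.77% of the 27025 genes of the table. The NF-κB consensus was found for 8 of the 55 (Arl5b, Ccrl2, Fos, Irf1, Maff, Nfkbia, Nfkbid and Rel) and for 4.46% of all genes. TGCGTCA was found for 3 of the 55 (Csrnp1, Nr4a1 and Snhg12, 5.45%) and 2.00% of all genes. TGANTCA was found for 3 (5.45%) and 7.82%, and the serum response CArG box for 1 (Zfp36, 1.82%) and 1.62%. The counts include the rule genes Nfkbid and Nr4a1, the latter being the gene that prompted the TGCGTCA search, so they do not test the motifs. The reference was every gene of the promoter table, not only those measured in these cells. A match describes the letters of the window and does not show that a factor binds there, and the Ccl4 promoter was not analysed here.

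Nr4a1-high cells made up between 1.66% and 2.57% of each islet library, and 1 such cell was found in the 2 spleen libraries. They were 158 of 6429 tetramer-negative cells in Round 1 (2.46%, exact 95% confidence interval 2.09–2.87) and 198 of 8932 in Round 2 (2.22%, 1.92–2.54). Among tetramer-positive islet cells, they were 20 of 1204 in Round 1 (1.66%, 1.02–2.55) and 41 of 1598 in Round 2 (2.57%, 1.85–3.46). The share was 2.11% ± 0.640 (SD, n = 2) in tetramer-positive and 2.34% ± 0.170 (SD, n = 2) in tetramer-negative libraries, a difference of -0.224 percentage points. Its sign was opposite in the 2 rounds (-0.796 and 0.349 points), and the exact two-sided permutation test gave p = 1, where 0.333 is the smallest p that 2 against 2 libraries allow. Without tetramer-positive Round 1 the difference was 0.229 points, and without the Nfkbid criterion it was 1.05 points, each with the sign turned. In the tetramer-positive spleen they were 1 of 3524 cells (0.0284%, interval up to 0.158%) in Round 1, and 0 of 2430 in Round 2, where the exact interval reaches 0.152%. Spleen cells had been kept up to 2000 genes, a lower limit than in the islets. With the islet limit of 3500 genes in the spleen, which was tried once the values were known, the counts were 1 of 3619 and 0 of 2591 cells. With the spleen limit in the islets, the shares were 1.69% and 1.54% in tetramer-negative and 1.70% and 2.01% in tetramer-positive libraries. Because the rule counts UMIs, and spleen cells were sequenced less deeply, each cell was also thinned to 2000 UMIs. The shares then fell to 0.948% and 0.810% in tetramer-negative and to 0.290% and 1.08% in tetramer-positive islet libraries, with 0 of 2680 and 0 of 1925 spleen cells. All intervals cover counting error only.

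**Figure D1:**
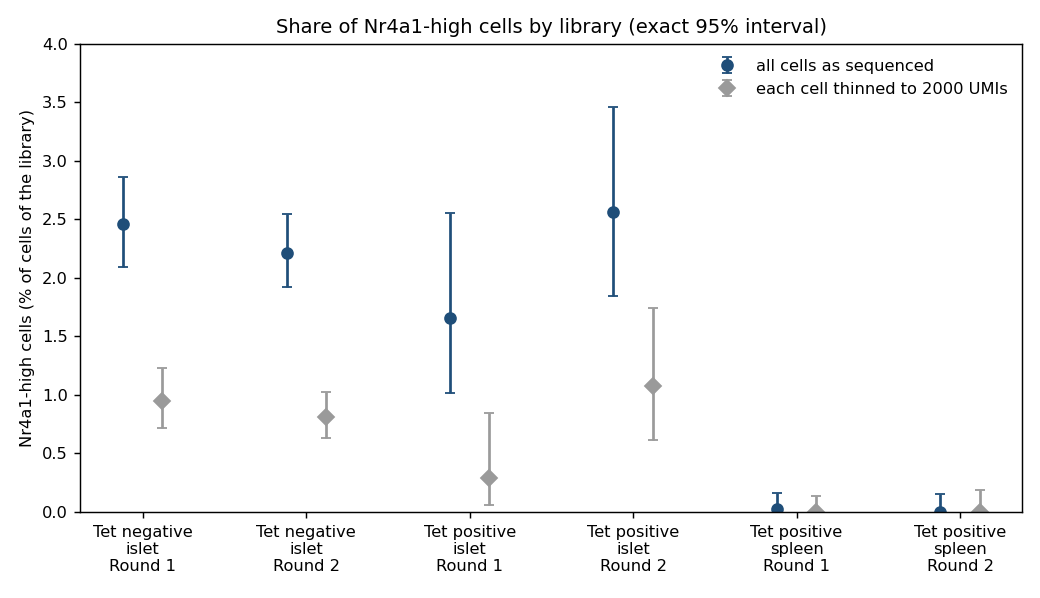
Share of Nr4a1-high cells in each of 6 libraries, in % of the library's cells, with exact 95% intervals; blue points use all UMIs and grey diamonds use cells thinned to 2000 UMIs. The 4 islet libraries lie between 1.66% and 2.57% on all UMIs with overlapping intervals, and the spleen libraries lie at or near 0.

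The members carried the markers of CD8 T cells. Because the rule sets minimum numbers of UMIs, cells with more UMIs meet it more easily, and the median depth of the members was 4823, 4690, 4496 and 4831 UMIs in tetramer-negative Rounds 1 and 2 and tetramer-positive Rounds 1 and 2 (the order used throughout), against 3776, 3857, 3795 and 4195 UMIs for the other cells of the same libraries. Their median mitochondrial share was lower in every library, between 1.09% and 2.18% against 1.19% to 2.91%. The summed level of 7 CD8 T-cell markers was 5280–7475 CPM (UMIs per 1000000 UMIs of the summed cells) in the members and 4682–6182 CPM in the other cells. No UMI of Cd4, of the B-cell genes Cd79a and Ms4a1, of the myeloid genes Itgam and Adgre1, of the dendritic cell genes Flt3 and Siglech or of the natural killer cell genes Ncr1 and Klrb1c was found in any member. The 4 B-cell markers summed to 0–16.5 CPM in the members and 1.56–4.69 CPM in the others. The 7 myeloid markers summed to 0–64.8 CPM in the members and 17.3–31.5 CPM in the others, and the 6 dendritic cell markers to 19.3–106 CPM and 17.8–107 CPM. Cells with at least 3 UMIs of other cell types made up 8.23%, 10.1%, 0% and 4.88% of the members and 3.92%, 6.5%, 2.62% and 5.14% of the others. With these cells left out of both, 68 genes were at least 2-fold higher in the members of all 4 libraries and 2 were lower. Of these 68, 64 were also among the 68 genes of the comparison described below. Their part in the comparison of the sorts was not tested. RNA of the exocrine pancreas was present in both, with 10 markers summing to 19.3–195 CPM in the members and 56.6–432 CPM in the others. More than 1 productive β chain, a sign of 2 cells in 1 droplet, was seen in 2.53%, 4.55%, 0% and 0% of the members and in 1.67%, 3.58%, 2.03% and 0.899% of the others. Barcodes of 12 of the 417 members also occurred in another library.

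The chosen genes varied widely among the members. The median member held 5, 5, 4 and 6 UMIs of Nr4a1, and the highest held 41, 46, 13 and 28. The median for Nfkbid was 2 UMIs in each library. Nr4a1 itself was common outside the set, since 31.1–47.6% of the other cells had at least 1 UMI, whereas Nfkbid was detected in 3.46–4.40% of them. At the edge of the rule, the 84 members with exactly 3 Nr4a1 UMIs averaged 1997 CPM of Nfkbia over the 4 libraries, and the 124 cells just outside, with 2 Nr4a1 UMIs and Nfkbid, averaged 1694 CPM. Averaged over the libraries, some genes were higher just outside the rule. Ifng was at 777 CPM against 342 CPM, Tnf at 195 against 72.6 CPM, Cd69 at 971 against 661 CPM and Tagap at 392 against 285 CPM. Ccl4 lay the other way on average, at 706 CPM outside and 2661 CPM inside. These averages weigh tetramer-positive Round 1 equally, with 4 cells outside and 6 inside (Cd69 at 2182 and 352 CPM). In every other library Cd69 was lower outside, at 688, 507 and 507 CPM against 753, 815 and 722 CPM. In tetramer-negative Round 2, Ifng was lower outside (136 against 358 CPM) and Ccl4 higher (374 against 283 CPM). The direction also varied between libraries for Tnf and Tagap. The 942 cells with at least 3 Nr4a1 UMIs but no Nfkbid averaged 700.2 CPM of Nfkbia.

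Next, RNA of the members was summed in each library and compared with the summed RNA of the library's other cells. Because the members were chosen on genes of the same cells, this comparison is a description and was given no test. Ratios are log2(CPM + 10), the pseudocount being 10 CPM, for 6117 genes that reached 20 CPM, and medians are over the 4 libraries. The members stood at least 2-fold higher in all 4 libraries for 68 genes (1.11%), counting Nr4a1 and Nfkbid, which the rule requires. The members stood at least 2-fold lower for 2 (0.0327%), which were Mki67, excluded by the rule, and the histone gene Hist1h1b. Without the Nfkbid criterion, 21 genes were at least 2-fold higher, all among the 68, and without the Mki67 criterion, the Hist1h1b ratio was 0.015. A further reference is that 1527 genes (25.0%) were higher by any amount in all 4 libraries and 765 (12.5%) were lower, with a median log2 ratio over all genes of 0.10.

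Effector cytokines and chemokines were among the genes that stood out most. Ifng, the interferon-γ gene, lay at 522, 460, 831 and 401 CPM in the members against 60.7, 57.4, 63.2 and 73.8 CPM in the other cells. The lowest member level was thus far above the highest level of the others, and the median log2 ratio was 2.86. Tnf, the gene of tumour necrosis factor, lay at 201, 123, 164 and 186 CPM against 22.8, 20.6, 19.4 and 21.5 CPM (median log2 ratio 2.60), again without overlap. Ccl4 lay at 1833, 1242, 3457 and 1631 CPM against 142.8, 142.3, 237.5 and 301.6 CPM (3.32). The related Ccl3 (1.99) and Xcl1, which attracts cross-presenting dendritic cells (1.63), were also at least 2-fold higher in all 4 libraries. Xcl1 reached 1883 and 1296 CPM in tetramer-positive members but already stood at 609.3 and 591.5 CPM in tetramer-positive other cells, above the 287.5 and 273.9 CPM of the tetramer-negative ones. Not every chemokine followed, since Ccl5, a product of memory and effector CD8 T cells, was lower in the members of all 4 libraries (-0.31). Of 10 measured cytokine genes, 4 were at least 2-fold higher in all 4 libraries (Ifng, Tnf, Lta and Tnfsf11, the gene of RANKL), 7 were higher in all 4 by any amount and none was lower. Il2, the T-cell growth factor, was below the minimum level, and its UMIs were found in 5, 1, 0 and 0 of the members.

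Most immediate early transcription factors were higher in the members. Of 25 such genes measured, counting Nr4a1 itself, 20 were higher in the members of all 4 libraries, 10 of these at least 2-fold. None was lower in all 4. The median of the group was 1.22 against 0.10 for all genes. Fos, a subunit of AP-1, had 1247, 1150, 811 and 1133 CPM in the members and 152.7, 196.8, 102.5 and 156.4 CPM in the others (2.82). Egr1, which responds to MAP kinases, had a median ratio of 2.04. Irf4, whose level follows TCR signal strength, had 2.26, and Myc, a driver of growth, had 2.07. Junb, an AP-1 partner (1.31), and Jun (1.02) were higher in all 4 libraries but did not double in each. The sister genes of Nr4a1 differed less than Nr4a1 did (3.05, used by the rule). Nr4a2 stood at 1226, 1195, 869 and 974 CPM against 481, 462, 561 and 769 CPM (0.98), and Nr4a3 had a ratio of 1.03 with a range from 0.38 to 1.12. Gadd45b, a stress and NF-κB response gene, was the highest after Nfkbid, with 1698, 1833, 1584 and 1547 CPM against 100.7, 150.0, 139.3 and 156.4 CPM (3.47).

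Most genes of the NF-κB pathway were higher, with genes of IκB proteins among the highest. Nfkbia, which encodes the IκBα that holds NF-κB in the cytoplasm and is resynthesised after activation, reached 2536, 2574, 2839 and 2116 CPM in the members against 329.7, 404.5, 249.6 and 291.8 CPM (2.86). Nfkbiz, another nuclear IκB, had a ratio of 1.95 and Rel, the subunit most used in activated T cells, of 1.71. The remaining subunits differed less, with 0.35 for Nfkb1, 0.27 for Relb and 0.10 for Nfkb2. Tnfaip3, which encodes the inhibitor A20, had 1.01. Of the 17 genes of this group, 14 were higher in all 4 libraries and 4 at least 2-fold, counting Nfkbid itself.

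Feedback regulators of the TCR and MAP kinase cascades were higher as well. Of 7 measured MAP kinase feedback genes, 6 were higher in all 4 libraries and 4 at least 2-fold, among them the phosphatases Dusp1 (1.82) and Dusp2 (1.52) and the Ras pathway inhibitor Spry1 (1.59). Of 22 TCR and cytokine feedback genes, 15 were higher in all 4 libraries, 6 of them at least 2-fold, and 2 were lower. Zfp36, whose protein destabilises cytokine mRNAs including that of Tnf, had 1889, 1322, 1256 and 1198 CPM against 226.3, 283.8, 206.5 and 252.0 CPM (2.38). Cish, an inhibitor of cytokine and TCR signals (2.05), Socs1, an inhibitor of interferon signalling (1.51), and Rgs16, a regulator of chemokine receptors (1.31), were each at least 2-fold higher in every library. Tagap, a GTPase-activating protein of lymphocytes, had 2.36. Among the first 15 genes by ratio were also 2 noncoding RNAs, Snhg15 (2.62) and 5430416N02Rik (2.31), and Icam1, the ligand of the integrin LFA-1 (2.24).

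**Figure D2:**
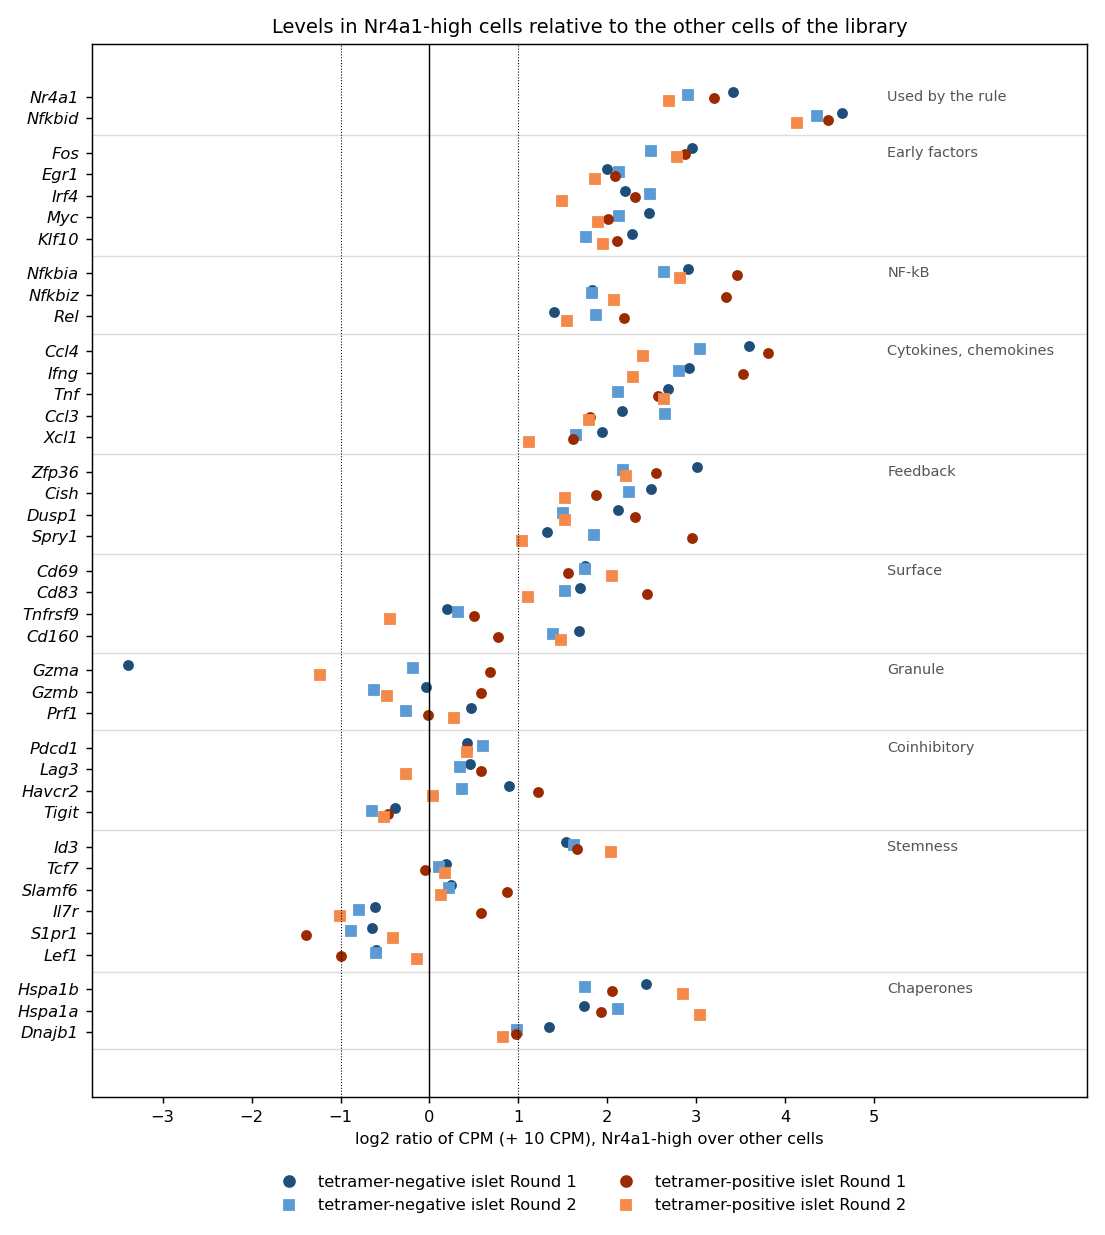
Log2 ratio of CPM (plus 10 CPM) between Nr4a1-high and other cells for selected genes by function, 1 point per islet library, with dotted lines at 2-fold in either direction. The cytokine, NF-κB and feedback genes lie above the 2-fold line in the 4 libraries, whereas most granule, coinhibitory and stemness genes lie closer to 0 or spread across it, such as Gzma from -3.39 to 0.68.

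Surface activation receptors were more uneven. Cd69 was high in every library, with 968.5, 1057, 453.9 and 708.5 CPM against 280.7, 308.4, 147.7 and 163.4 CPM (1.75), and Cd83 had a ratio of 1.61. These 2 were the only ones of 13 measured receptors at least 2-fold higher in all 4 libraries. Tnfrsf9, the costimulatory receptor 4-1BB, ran from -0.45 to 0.50, and Tnfrsf4, which encodes OX40, from -0.68 to 1.91. In tetramer-positive Round 1 the Tnfrsf4 level of 405.6 CPM came from 42 UMIs, of which 17 were in 1 cell.

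The cytotoxic machinery did not stand higher in the same way. None of 10 measured granule genes was at least 2-fold higher in all 4 libraries, and the median of the group was 0.11. By any amount, 2 were higher in all 4 (Ctsw, 0.70, and Nkg7, 0.50) and 1 was lower. Gzmb, encoding granzyme B, lay at 120.0, 109.5, 280.1 and 158.5 CPM against 123.8, 173.8, 184.3 and 224.8 CPM, so that the levels overlapped. Gzma, encoding granzyme A, ran from -3.39 to 0.68, and Prf1, encoding perforin, had a median ratio of 0.13. Glycolytic genes (12 measured, median -0.01) and Myc target genes of ribosome assembly (17 measured, median 0.18) contained no gene at least 2-fold higher in all 4 libraries. By any amount, 1 glycolytic gene was higher in all 4 and 2 were lower, and 5 Myc targets were higher and 2 lower. The largest ratios were 0.95 for Gnl3, of the nucleolus, and 0.59 for Slc2a3, a glucose transporter. Of 13 cell-cycle genes, none was higher in all 4 libraries and 5 were lower, in cells chosen for the absence of Mki67.

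Coinhibitory receptors and factors that mark chronically stimulated cells differed in both directions. Pdcd1, which encodes PD-1, was higher in all 4 libraries by a small margin, at 389.5, 413.4, 762.9 and 955.5 CPM against 288.1, 268.8, 565.0 and 711.8 CPM (0.42). Ctla4, a checkpoint receptor induced by activation, had a median ratio of 1.11, and Tox, a factor of exhausted cells, had 0.37. Tigit, in contrast, was lower in all 4 libraries, at 308.3, 255.2, 511.8 and 596.6 CPM against 405.4, 406.0, 712.8 and 854.3 CPM (-0.49). In all, 5 of the 9 measured genes of this group were higher in all 4 libraries, 1 was lower and none was at least 2-fold higher or lower in all. Of the genes linked to anergy, Cblb, a ubiquitin ligase that dampens TCR signals (-0.43), and Itpkb, an inositol kinase (-0.23), were lower in all 4 libraries, and the diacylglycerol kinase gene Dgka (0.31) was higher.

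Of the genes of quiescence, memory and recirculation, Id3, a target of TCR signalling in long-lived cells, was at least 2-fold higher in all 4 libraries (62.4, 66.7, 57.9 and 74.6 CPM against 14.9, 14.9, 11.6 and 10.6 CPM). Tcf7, which encodes the stem-like cell factor TCF-1, differed little (0.14). Slamf6, another marker of stem-like cells, had 0.23, and Cxcr6, a tissue-homing chemokine receptor, had 0.37. Lef1 (-0.60), and S1pr1, the receptor for exit from tissue (-0.76), were lower in all 4 libraries. Tbx21, which encodes the effector factor T-bet, stood at 201.2, 280.0, 193.2 and 209.7 CPM against 45.4, 82.9, 41.0 and 101.1 CPM (1.79), although in 1 library its ratio of 0.98 missed the 2-fold mark. Ccr7, a lymph-node homing receptor, ran from -1.90 to 2.50, and its 840.2 CPM in tetramer-positive Round 1 came from 87 UMIs in 5 of 20 cells, 44 of them in 1 cell.

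Heat shock chaperones, which respond to tissue handling, also differed. Hspa1a had 49.4, 386.7, 57.9 and 787.7 CPM in the members against 7.88, 81.0, 7.79 and 87.0 CPM in the others, and Hspa1b had a ratio of 2.24. Both groups of cells went through the same digestion in each library. Of 11 chaperone genes, 8 were higher in all 4 libraries and 1 was lower, with a median of 0.50. The Hspa1a levels were several-fold higher in Round 2 than in Round 1 in both sorts. In the members, Nfkbia and Gadd45b were at like levels in both rounds. In the other cells, some early genes were higher in Round 2. Nr4a1 lay at 116 and 178 CPM in tetramer-negative Rounds 1 and 2, and at 113 and 199 CPM in tetramer-positive ones. In the same order, Dusp1 lay at 155, 238, 111 and 240 CPM, and Fos at 153, 197, 102 and 156 CPM. The part of handling in the levels of early genes was not tested. Irf1, an interferon response factor, was at least 2-fold higher in all 4 libraries (1.97), alone among 10 measured interferon-stimulated genes, as was Pmaip1, the proapoptotic NOXA gene (1.23), among 10 genes of the Bcl2 family.

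Levels differed with the number of UMIs of both chosen genes, though not evenly. Cells with neither Nr4a1 nor Nfkbid (10095 cells) averaged 253 CPM of Nfkbia, 154 CPM of Ccl4 and 47.8 CPM of Ifng over the 4 libraries. Cells with at least 3 Nr4a1 UMIs and no Nfkbid (942 cells) averaged 700.2, 547 and 147 CPM. Cells with Nfkbid and at most 1 Nr4a1 UMI (483 cells) averaged 736, 1333 and 160 CPM, so each gene alone marked cells with intermediate levels. In the members the averages were 2516, 2041 and 553 CPM, and in the 78 members with 10 or more Nr4a1 UMIs they were 3455, 2826 and 932 CPM. The steps were uneven for Ccl4, which averaged 2121 CPM in members with 3 or 4 Nr4a1 UMIs and 1501 CPM in those with 5 to 9. The first average includes 4154 and 2473 CPM from the 11 and 14 cells of the tetramer-positive libraries. In tetramer-negative Round 2 the order was reversed (410 and 1150 CPM). Ccl4 also averaged 1333 CPM in cells with Nfkbid and at most 1 Nr4a1 UMI and 706 CPM in those with exactly 2. For Xcl1 and Nr4a2 the picture differed, because cells with Nr4a1 but without Nfkbid came close to the members, with 1036 against 1298 CPM of Xcl1 and 885 against 1066 CPM of Nr4a2.

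**Figure D3:**
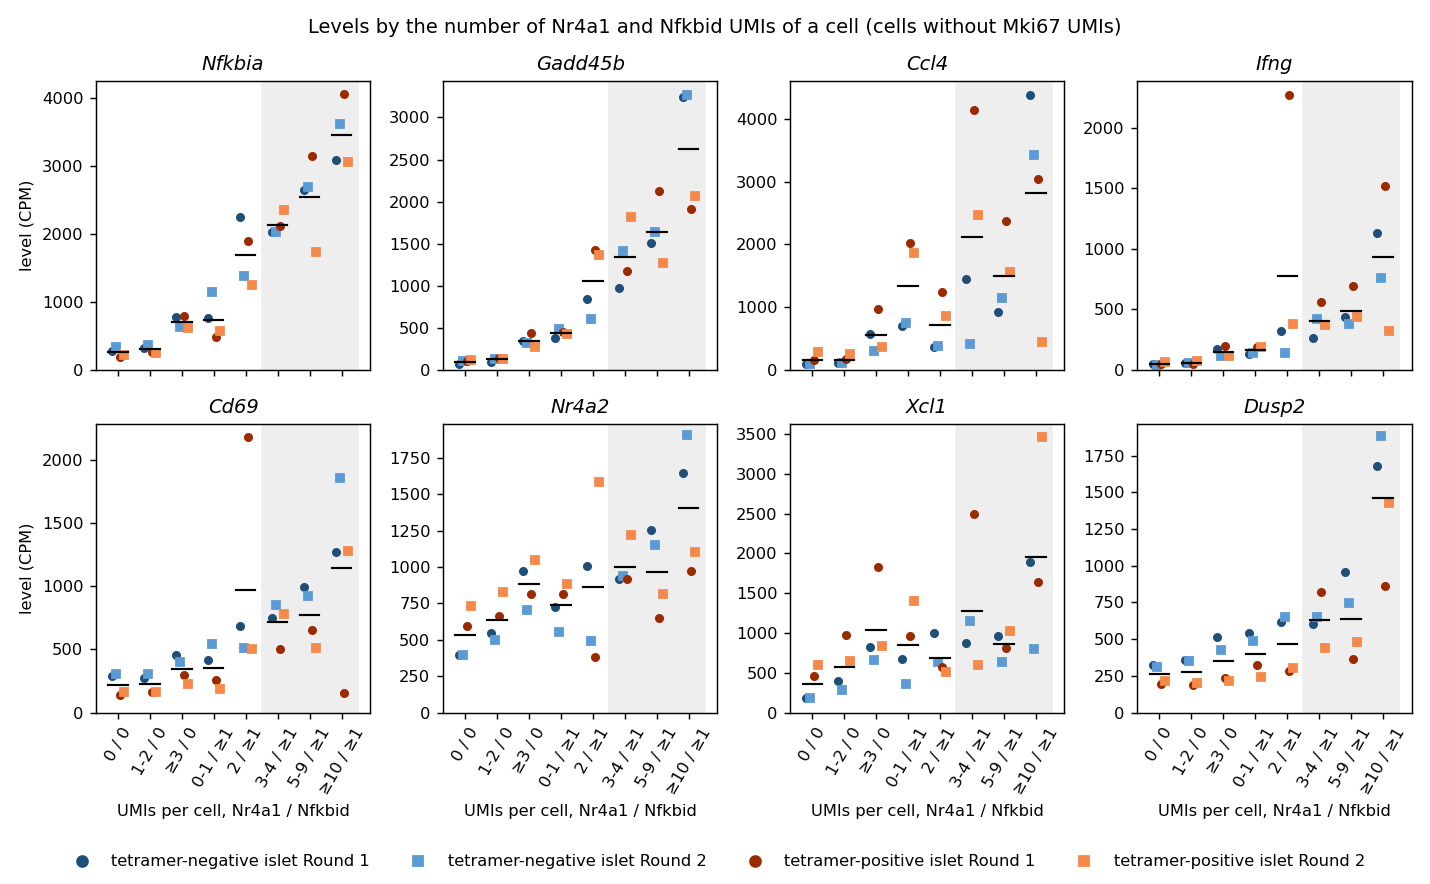
Levels of 8 genes in CPM by the number of Nr4a1 and Nfkbid UMIs of a cell, 1 point per islet library with the mean as a line; the grey area holds the members. Nfkbia and Gadd45b are highest where both genes are present, with a Nfkbia mean of 700.2 CPM without Nfkbid and 2516 CPM in the members, whereas Nr4a2 and Xcl1 are already high with Nr4a1 alone.

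Individual members were not alike in their effector output. UMIs of Ifng were found in 237 of 417 members (56.8%) and in 16.0% of the other cells, and UMIs of Ccl4 in 214 (51.3%) and 15.8%. Both together were found in 160 members (38.4%) and in 5.07% of the other cells. Of the 5 genes Ifng, Tnf, Ccl3, Ccl4 and Xcl1, none was detected in 69 members (16.5%) and 53.2% of the others, and 4 or 5 were detected in 88 members (21.1%) and 1.21% of the others. Members with no UMI of the 5 genes, which need not lack their expression, were all tetramer-negative, making up 20.9% and 18.2% of the members in Rounds 1 and 2, as against 0 of 20 and 0 of 41 tetramer-positive members. The same share among the other cells was also smaller in tetramer-positive libraries (35.2% and 27.3%) than in tetramer-negative ones (56.1% and 58.2%). After thinning to 2000 UMIs, which left out 9 members and 1098 other cells, Ifng was detected in 38.6% to 65.0% of the members of a library and in 7.88% to 12.0% of the others. Thinned Ccl4 was detected in 36.6% to 75.0% of the members against 9.06%, 8.45%, 16.5% and 19.1%. In 69 cells that were marked by exocrine RNA and should lack these genes, 0 held Ifng or Ccl4, which allows up to 5.21% by the exact interval, at a median depth of 767 UMIs. Of these cells, 2 held Tnf (2.90%, up to 10.1%) and 3 held Nr4a1 (4.35%, up to 12.2%). Pdcd1 and Tcf7, the pair that marks progenitors of exhausted cells, were detected together in 101 members (24.2%) and in 12.9% of the others. Pdcd1 and the coinhibitory gene Havcr2 were also found together more often in the members, in 46 of 417 against 1043 of 17746 other cells. Each pair was more frequent in the members of every library. These pairs were counted on all UMIs, and the members were deeper than the other cells. The part of depth in the pairs was not tested.

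For the genes highest in the members, levels in tetramer-positive spleen cells gave a separate reference. Nr4a1 lay at 43.2 and 14.9 CPM in the spleen, below the 113–199 CPM of the other islet cells. Irf4 lay at 15.2 and 3.76 CPM and Gadd45b at 85.1 and 67.9 CPM. Yet Ccl4 stood at 1129 and 802 CPM and Ifng at 372 and 257 CPM in the spleen, above the other cells and below the members of each islet library. Cd69 stood at 714 and 583 CPM, and Nfkbia at 605 and 451 CPM. High Ccl4 and Ifng were thus found in the spleen without high Nr4a1, while Xcl1 was low there (64.1 and 66.0 CPM). Unlike Nr4a1, Irf4 and Gadd45b, some early and feedback genes also stood above the other cells of each islet library. Fos lay at 417 and 343 CPM, Egr1 at 78.5 and 69.5 CPM and Zfp36 at 529 and 433 CPM in the spleen.

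The members of the tetramer-positive and tetramer-negative sorts were then compared with each other, which the rule did not use. The test was edgeR's quasi-likelihood test on summed counts, with Benjamini-Hochberg adjustment over 6421 genes. At an adjusted p under 0.05, 1 gene was higher (0.0156%) and 1 lower (0.0156%) in tetramer-positive members, and 478 had an unadjusted p under 0.05. The higher gene, named here after its values were seen, was the TCR segment Trbv13-3, with 75.3 and 101 CPM in tetramer-negative and 1072 and 1426 CPM in tetramer-positive members. The lower gene was Plaur, the urokinase receptor, with 215.3, 217.2, 19.3 and 28.0 CPM. Its log2 fold change was -3.15 (SE 0.359, adjusted p = 0.0455 by edgeR). The tetramer-positive values rest on 2 and 6 UMIs, and the call was lost without tetramer-positive Round 2. Samples of the same round came from the same pool of mice, and a fit with a term for the round called 40 genes higher (0.623%), 4 of them TCR segments, and 73 lower (1.14%), 13 of them TCR segments. DESeq2 with the round, added after the data were seen, called 12 higher and 3 lower and gave no adjusted p for 4979 genes. Without the round, leaving out tetramer-negative Round 1 gave 12 and 33 calls, tetramer-negative Round 2 gave 21 and 21, and tetramer-positive Round 1 gave 8 and 13, where the lone library of a group is assumed to vary like those of the other group.

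In the edgeR fit with the round, genes of recirculation and quiescence were lower in tetramer-positive members. Of 15 genes of stemness, memory and homing, 7 were lower, among them Lef1, Il7r, S1pr1, Klf2, Klf3 and Satb1, and none was higher. Il7r, the receptor for a survival cytokine of resting T cells, lay at 120.0, 107.6, 19.3 and 4.66 CPM, a log2 fold change of -3.55 (SE 0.559, adjusted p = 0.000248 by edgeR with the round; 0.127 without it). Igfbp4, a gene of naive T cells, had 39 and 67 UMIs in tetramer-negative members and 0 in tetramer-positive ones, at least 5.92-fold lower against a floor of 3 UMIs over both libraries. Itgae, which encodes the tissue-retention integrin CD103, lay at 82.4, 91.4, 0 and 4.66 CPM. Tgtp2, an interferon-inducible GTPase gene, had 51.8, 65.7, 0 and 14.0 CPM, and Fam241a had 69.4, 171, 19.3 and 28.0 CPM. For each of these genes, both tetramer-positive levels were below both tetramer-negative levels. None of the 7 genes of the list passed the test without the round. The sorts also differed in the other cells, which are far more numerous. There the fit with the round called 1718 genes higher and 1938 lower in tetramer-positive cells, of 11814 tested. Itgae, for example, lay at 46.6, 56.2, 6.23 and 22.7 CPM in the other cells.

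Some coinhibitory genes were higher in tetramer-positive members, and for Pdcd1 and Tigit the other cells of the sorts differed in the same direction (levels above). Of 11 coinhibitory genes tested, 4 were higher with the round in the fit (Pdcd1, Tigit, Havcr2 and Tox) and none was lower. Pdcd1 had a log2 fold change of 1.07 (SE 0.209, adjusted p = 0.00351 by edgeR with the round; 0.340 without it). Tox, at 191.8, 181.0, 357.3 and 400.8 CPM, had 1.01 (adjusted p = 0.00950 by edgeR with the round). Klrc1, which encodes the inhibitory receptor NKG2A, lay at 310.7, 295.3, 656.7 and 1067 CPM (adjusted p = 0.000156 by edgeR with the round). Lgals1, the lectin galectin-1, lay at 824.9, 837.2, 1902 and 2531 CPM. Of 10 granule genes tested, 3 were higher (Gzmk, Nkg7 and Serpinb9), and of 8 effector factors 2 were (Eomes and Ikzf2), with none lower in either list. Of 6 chemokines, Ccl5 was higher and Cxcl10 lower. None of 10 effector cytokines passed in either direction, with a median log2 fold change of -0.21 without the round. Cell-cycle transcripts were seen in tetramer-positive Round 2 in spite of the Mki67 criterion: Stmn1 lay at 24.7, 13.3, 29.0 and 139.8 CPM, the last from 30 UMIs in 9 of 41 cells. Zbtb32, a repressor induced by activation, lay at 9.41, 9.52, 106.2 and 28.0 CPM, but 9 of its 11 UMIs in tetramer-positive Round 1 were in 1 cell. Further genes higher with the round were Tnfsf4, the gene of the OX40 ligand (23.5, 48.6, 174 and 79.2 CPM), Ubash3b, a phosphatase that limits TCR signals (48.2, 33.3, 145 and 103 CPM), Dbi, an acyl-CoA binding protein gene (132, 205, 357 and 643 CPM), and the γ-chain constant genes Tcrg-C2 and Tcrg-C4. The exocrine genes Prss2 and Ctrb1 were among the 73 lower genes, with 0 UMIs in tetramer-positive members and at most 37.7 CPM in the tetramer-negative ones. So were 5 mitochondrial genes, mt-Nd1, mt-Nd2, mt-Nd3, mt-Co3 and mt-Cytb. For example, mt-Co3 lay at 2928, 2828, 937 and 1021 CPM (adjusted p = 4.75e-05 by edgeR with the round). The median mitochondrial share of the members was 2.18% and 1.60% in the tetramer-negative and 1.18% and 1.09% in the tetramer-positive libraries. The part of mitochondrial and exocrine RNA in the calls was not tested.

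The genes that stood higher in the members were also compared between the sorts. Of the 68 genes at least 2-fold higher in the members, all were tested, none passed without the round, and, with the round in the fit, Rgs16 was higher and Cd69 and Ier5 were lower in tetramer-positive members. These are 4.41% of the 68, beside 1.76% of all genes tested. The median log2 fold change of the 68, without the round, was -0.11, against -0.02 for all genes tested. Nr4a1 lay at 1340, 1399, 1120 and 1342 CPM (log2 fold change -0.19, SE 0.266, adjusted p = 0.917 by edgeR). Ifng had 0.28 (SE 0.372, adjusted p = 0.909 by edgeR) and Nfkbia had -0.07 (SE 0.296, adjusted p = 0.983 by edgeR). Ccl4 had 0.70 (SE 0.421, adjusted p = 0.774 by edgeR), higher in both rounds. These errors leave room for differences of either sign for Nr4a1, Ifng and Nfkbia, and the tetramer-positive sums rest on 20 and 41 cells, in which 1 UMI is worth 9.66 and 4.66 CPM.

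**Figure D4:**
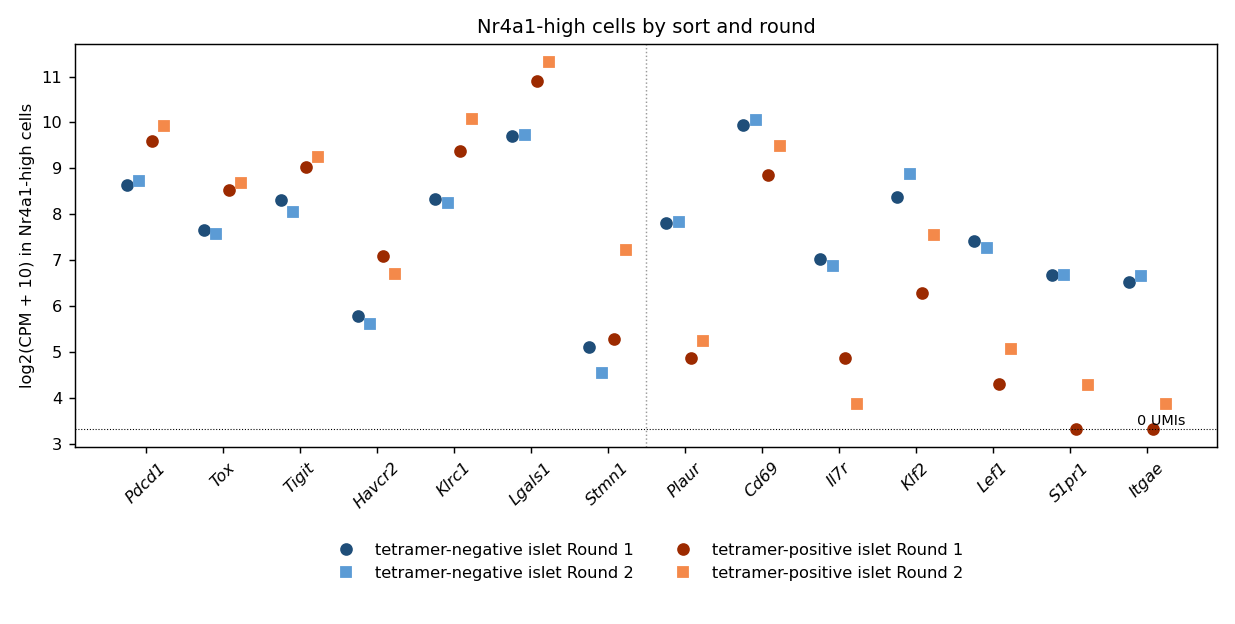
Levels of 14 genes in Nr4a1-high cells as log2(CPM + 10), 1 point per library, with tetramer-negative members in blue and tetramer-positive in red. Pdcd1, Tox, Tigit, Havcr2, Klrc1, Lgals1 and Stmn1, left of the dotted line, lie higher in both tetramer-positive libraries, and the other 7, such as Plaur at 215.3 and 217.2 against 19.3 and 28.0 CPM, lie lower.

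Whether the difference between members and other cells itself depended on the sort was tested as an interaction in the same model over 10266 genes. None passed an adjusted p of 0.05 with edgeR, with 442 genes at an unadjusted p under 0.05; DESeq2 gave 0 and 148. With an added term for round and class, 4 passed (Nr4a2, Gbp2, Penk and Rgcc, named after their values were seen), and without tetramer-positive Round 1 or Round 2, 29 and 37 passed. The first by p-value was Nr4a2, with an interaction of -0.99 (SE 0.185, adjusted p = 0.0634 by edgeR): its ratio between members and others was smaller in tetramer-positive libraries, where the other cells already held 561 and 769 CPM. Penk, the precursor of enkephalins, had -1.97 (SE 0.369, adjusted p = 0.0634 by edgeR), with 57.9 and 41.9 CPM in tetramer-positive members and 142.5 and 163.8 CPM in their neighbours. In tetramer-negative cells, the Penk levels of members (93.0 and 63.8 CPM) and others (71.2 and 66.2 CPM) were close.

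The TCR sequences, an independent readout, tied 276 of the 417 members to clones, a clone being the cells of 1 library with the same single productive α and single β CDR3 nucleotide sequence. The members were spread over many clones: 100 paired members of tetramer-negative Round 1 fell into 79 clones and 131 of Round 2 into 117, while 15 and 30 tetramer-positive members fell into 9 and 16. Clones of at least 2 cells held 55.0%, 58.8%, 93.3% and 100% of the members and 53.5%, 45.7%, 98.3% and 98.8% of the other paired cells. The mean difference was 2.69 percentage points ± 7.53 (SD, n = 4; higher in 3 of 4 libraries; exact sign-flip permutation test, two-sided, p = 0.625, smallest possible 0.125). Without tetramer-negative Round 2 the mean difference was -0.772 points. Among clones of 20 or more cells, 7 of 11, 13 of 25, 6 of 6 and 13 of 16 contained a member, and the largest without any had 88, 75 and 62 cells in the 3 libraries that had such clones. The share of members was 3.24% and 1.82% among tetramer-negative cells whose clone had no second cell, and 3.34% and 2.39% among all paired cells of those libraries.

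The CDR3 sequences of the clones that held the most members in each library are shown with the α chain first, because those of the tetramer-negative sort shared no V or J segment, while those of the tetramer-positive sort shared TRAV16N and TRBV13-3. They are written 5′ to 3′ in lower case throughout, as no base is singled out.
Tetramer-negative Round 1, TRAV6N-7/TRAJ18 α: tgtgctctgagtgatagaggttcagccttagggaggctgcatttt
Tetramer-negative Round 1, TRBV16/TRBJ2-2 β: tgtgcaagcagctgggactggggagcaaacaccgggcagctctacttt
Tetramer-negative Round 2, TRAV5-1/TRAJ15 α: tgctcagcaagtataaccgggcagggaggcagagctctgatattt
Tetramer-negative Round 2, TRBV1/TRBJ1-3 β: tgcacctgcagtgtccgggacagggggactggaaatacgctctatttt
Tetramer-positive Round 1, TRAV16N/TRAJ49 α: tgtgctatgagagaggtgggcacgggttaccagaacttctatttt
Tetramer-positive Round 1, TRBV13-3/TRBJ2-4 β: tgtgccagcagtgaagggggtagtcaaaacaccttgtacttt
Tetramer-positive Round 2, TRAV16N/TRAJ42 α: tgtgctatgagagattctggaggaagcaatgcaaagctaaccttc
Tetramer-positive Round 2, TRBV13-3/TRBJ2-2 β: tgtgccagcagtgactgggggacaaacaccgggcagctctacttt

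The first of these clones was the largest of tetramer-negative Round 1, and 10 of its 232 cells were members (4.31%, exact 95% interval 2.09–7.78). It also held 1 cell in the tetramer-positive islet library and 1 in the spleen library of the same round. The second had 5 members among 96 cells (5.21%, 1.71–11.7). The tetramer-positive clones had 5 members of 86 cells in Round 1 (5.81%, 1.91–13.0) and 6 of 193 in Round 2 (3.11%, 1.15–6.64), and they also held 265 and 323 cells of the tetramer-positive spleen library of their round. The largest clone of tetramer-positive Round 2, with 205 cells, contained 2 members. A higher share, 4 of 22 cells (18.2%, 5.19–40.3), was found in a smaller TRAV6N-7/TRAJ34 clone of tetramer-negative Round 1, one of many clones compared. TRBV13-3, a β-chain segment, was used by 14 of 15 and 27 of 30 tetramer-positive members, and by 87.4% and 92.8% of the other tetramer-positive cells.

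Clones of the members were looked up in the tetramer-positive spleen of the same round. In the tetramer-positive islets, 15 of 15 and 29 of 30 members belonged to a clone also found in the spleen, against 93.8% and 95.2% of the other paired cells. In the tetramer-negative islets, 11 of 100 and 6 of 131 members did, against 11.5% and 3.36%.

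**Figure D5:**
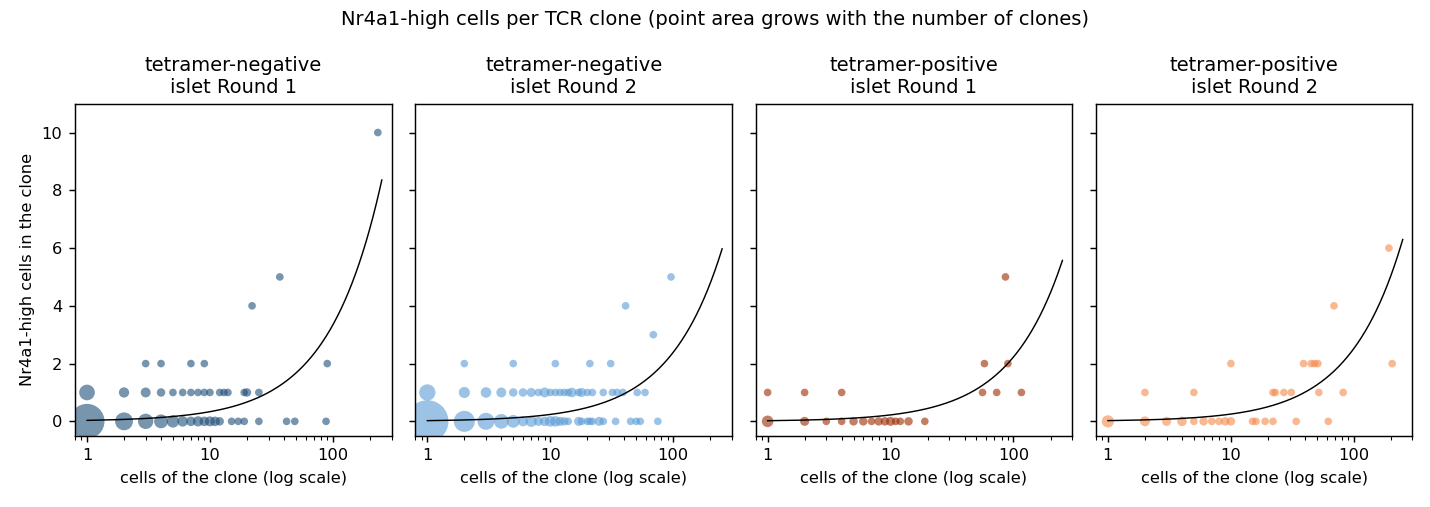
Members per TCR clone (vertical axis) against the cells of the clone (horizontal axis, log scale) in each islet library; the point area grows with the number of clones, and the curve is the number at the library's mean share. The most members in a clone were 10 of 232 cells in tetramer-negative Round 1 and 6 of 193 in tetramer-positive Round 2.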

How the data were processed

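CD8 T cells from 4 islet and 2 spleen libraries were profiled with 10x 5′ scRNA-seq, with TCR sequencing of the same cells. The authors ran Cell Ranger against mm10, and the deposited matrices are UMI counts as Cell Ranger wrote them, without normalization or removal of ambient RNA. The deposited contig tables give chains and CDR3 sequences. Their UMI counts were used only in an alternative that kept the chain with the most UMIs in cells with extra chains. Which Cell Ranger version made the files is given differently by the sources, and the versions are not printed. No doublet caller was run.

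Cells were kept by the limits that the study used for mitochondrial UMIs and genes (200 to 2000 genes in the spleen). Counts were summed per library and class of cells to CPM. Total UMIs of the members were 849777, 1049938, 103548 and 214549. Sorted groups were compared with edgeR 4.0.16 in R 4.3.3 (TMM, filterByExpr, quasi-likelihood, Benjamini-Hochberg); DESeq2 1.42.0, other scalings, filters and rules were alternatives. Genes at an adjusted p under 0.05 count as called. Scripts were tested on simulated data. With 2 libraries per group, p-values of the fits without the round measure the spread between libraries of the same sort. Those fits treat the 4 libraries as independent, although both sorts of a round share a pool of 10 mice. P-values of the fits with the round measure how far the difference between the sorts varies between the 2 rounds. Those of the interaction measure how far the difference between members and other cells varies between libraries of the same sort.

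The members and gene lists were chosen with earlier results of these data known; the limit of 3 UMIs for genes of other cell types was set after the data were seen. Genes were named by the largest median ratio among those at least 2-fold changed in all 4 libraries (the first 15), by the largest change among called genes apart from TCR segments (the first 10), or as genes of the lists with large ratios or that the study uses to describe islet cells. Klrg1 was below the minimum level. The round pairs the libraries, since both islet sorts of a round came from the same mice, and deviations of same-round libraries from their group means correlated across genes (r = 0.482 in the members over 3210 genes and 0.859 in the other cells).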

Additional observations from a re-analysis of the deposited data

Results flagged for a closer look

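For 3 genes, the ratio between Nr4a1-high and other cells lay on opposite sides of 0 in the 2 tetramer-negative and the 2 tetramer-positive libraries; the direction itself was compared without a test, and the interaction over all genes is given beside it. Serpinb9, an inhibitor of granzyme B, stood at 40.01 and 71.4 CPM in tetramer-negative members against 50.9 and 88.3 CPM in the other cells, and at 145 and 149 CPM against 40.9 and 90.0 CPM in the tetramer-positive libraries. Its mean log2 ratio was 1.42 higher in the tetramer-positive libraries (interaction, adjusted p = 0.851 by edgeR). Klf2, a factor of quiescent and recirculating T cells, stood at 325 and 462 CPM against 447 and 588 CPM, and at 67.6 and 177 CPM against 52.6 and 149 CPM, a mean log2 ratio 0.667 higher in the tetramer-positive libraries (adjusted p = 0.991 by edgeR). Cxcl10, an interferon-induced chemokine, stood at 55.3 and 143 CPM against 38.9 and 54.2 CPM, and at 29.0 and 28.0 CPM against 36.2 and 40.6 CPM, a difference of -1.16 (adjusted p = 0.991 by edgeR), with 3 and 6 UMIs in the tetramer-positive members. None of the 3 interactions passed the test.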

How the results depend on the processing

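All values below are given once for the alternatives that changed a result. Among 68 genes at least 2-fold higher in the members, 21 remained without the Nfkbid criterion, and the count was 61 to 100 under the other settings and 75 to 91 without 1 library. Of genes at least 2-fold lower (2), there was 1 without the Nfkbid criterion, 0 without the Mki67 criterion (Hist1h1b 0.015 and Mki67 0.22, both turned in sign because the criterion removes cells with Mki67), 6 with a pseudocount of 1 CPM and 5 without the upper limit on genes, and 2 to 4 without 1 library. The share of members, tetramer-positive minus tetramer-negative, was 1.05 points without the Nfkbid criterion, -0.676 to 0.229 without 1 library, and -0.224 with the replicate block. Genes higher and lower in tetramer-positive members (1 and 1) became 40 and 73 with the replicate block, 2 and 3 with DESeq2, 34 and 65 without a filter on low counts, and 12 and 3 with DESeq2 and the block, added after the data were seen, where 4979 genes had no adjusted p. The lower genes were 8 without the Nfkbid criterion and 0 without the upper limit on genes. Without 1 library they were 1 to 21 higher and 0 to 33 lower. Genes with an interaction (0) were 4 with the replicate block, Nr4a2 and Penk (2) without a filter, 1 (H2-Ab1) without the Nfkbid criterion, and 0 to 37 without 1 library, a set of fits added after the data were seen. The difference in expanded clones was -0.772 to 5.25 points without 1 library. The causes were not tested, apart from the Mki67 criterion. For 118 named genes under 14 settings, 1544 of 1652 ratios stayed within 1 SD over the libraries and 106 (66 genes) went beyond it. Another 2 turned in sign, which was counted only for genes at least 2-fold changed in all 4 libraries. Without the Nfkbid criterion, 54 genes went beyond 1 SD and 64 stayed within it. The total of 1544 includes settings that could not move a gene. Dropping the CPM minimum leaves each ratio unchanged, and dropping 1 library cannot shift a median beyond the SD of the same libraries. Depth limits the tetramer-positive members most, at 20 and 41 cells.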
